A study of Arabidopsis thaliana with 12 samples.

Results

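AT3G18870, a gene of the mTERF family, and AT4G21770, a gene of the pseudouridine synthase family, were followed on 12 arrays of Arabidopsis thaliana RNA. They are 2 of the 691 genes that had a probe annotated to them alone. Each has 1 probe, and 0 of the 870 probes annotated to several genes include either of them. Both genes were chosen because their probes were lower in plants treated with DCMU in these same data, so their difference between the groups is given as a description and without a test.

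Proteins of the mTERF family are encoded in the nucleus and act mostly in mitochondria and plastids. They bind nucleic acid through repeated helical motifs, and plant members are known for roles in organelle transcription, intron splicing and ribosome function. Pseudouridine synthases act on RNA after it has been made: they convert selected uridines of ribosomal, transfer and other RNAs into pseudouridine, a modification that stabilises RNA folding. The work of a plastid depends on both kinds of protein, since plastid genes encode core photosystem subunits whose RNAs must be transcribed, processed and translated inside the organelle.

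The treated group consisted of wild-type plants of ecotype C24 that received DCMU while growing under light specific for photosystem II. The untreated group consisted of wild-type C24 plants under that light alone. DCMU, the herbicide diuron, stops electrons from passing out of photosystem II into the plastoquinone pool. Each group has 6 arrays, numbered 1 to 6, of total RNA; the sources used here give no plant age, tissue, dose or duration. Numbers 1-2, 3-4 and 5-6 went together in their deviations within each group, so the log2 values of such a pair were averaged into 1 replicate, giving 3 replicates per group. Separate plantings are not stated in the labels, and the p-values below cover only how these replicates varied, which may be technical variation.

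Levels are spot intensities in the authors' scaled units. Array totals ran from 3643 to 3768 and 3.93% to 4.22% of probes per array were listed at 0. Over all features tested, the median log2 change (DCMU-treated minus untreated) was 0.10. The 5 listed photosystem and light-harvesting genes each had a probe of their own. They were above the floor of 0.0669, the lowest level kept in these comparisons, on every array (lowest value 0.951). Their summed level was 32.2 to 40.96 on DCMU-treated and 41.01 to 51.2 on untreated arrays. That sum rests mostly on the antenna gene LHB1B2 (8.23 to 25.4 over all arrays) and AT2G30570 (14.9 to 23.8). Of the 5 log2 changes 3 were below 0, with a median of -0.30, where 1069 of all 3278 features were below 0. LHB1B2 and the photosystem II repair gene PSB27 passed as lower (limma, adjusted p under the threshold of 0.05). That is 2 of the 5, against 3.17% of all features. The 5 genes were listed with earlier results of these data known, so this share is only a description. The part of these changes in the levels of AT3G18870 and AT4G21770 was not tested. Of 6 listed marker genes of root plastids and senescence 0 had such a probe, so only green-tissue genes could be looked at. Of all 3439 probes only 160 never exceeded the floor, so values above it do not show which tissue was used.

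AT3G18870 was lower in every DCMU-treated array than in every untreated array. Its intensities were 1.13, 1.11, 1.09, 1.05, 0.956 and 0.964 in DCMU-treated arrays 1 to 6. In untreated arrays 1 to 6 they were 1.52, 1.49, 1.33, 1.29, 1.71 and 1.58. The lowest untreated array stood 1.14-fold above the highest DCMU-treated array, a gap smaller than the 1.33-fold range among the untreated arrays and close to the 1.19-fold range among the treated ones. Replicates averaged 1.05 ± 0.0832 with DCMU and 1.48 ± 0.167 without (SD, n = 3 each), a level 1.41-fold lower with DCMU and a log2 change of -0.50. In bulk tissue, less RNA of a gene per cell and fewer cells that express it cannot be told apart.

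AT4G21770 showed the same order of groups. Its intensities were 0.648, 0.697, 0.648, 0.620, 0.774 and 0.770 in DCMU-treated arrays 1 to 6. In untreated arrays 1 to 6 they were 1.01, 1.04, 0.925, 0.885, 1.18 and 1.15. All 6 treated arrays lay below all 6 untreated ones, with a gap of 1.14-fold between the groups against a range of 1.25-fold among treated and 1.34-fold among untreated arrays. The replicate means were 0.693 ± 0.0713 with DCMU and 1.03 ± 0.130 without (SD, n = 3 each), which is 1.49-fold lower with DCMU and a log2 change of -0.57.

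Among all 3278 features tested, 5.61% likewise had all 6 DCMU-treated arrays below all 6 untreated ones (15.4% had groups of arrays that did not overlap in either direction), and 8.69% had all 3 treated replicates below all 3 untreated replicates. A change at or below that of AT3G18870 was measured in 112 features (3.42%), and one at or below that of AT4G21770 in 90 features (2.75%). These shares describe where the 2 chosen genes lie and carry no further evidence, because the genes were picked on this difference.

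**Figure D1:**
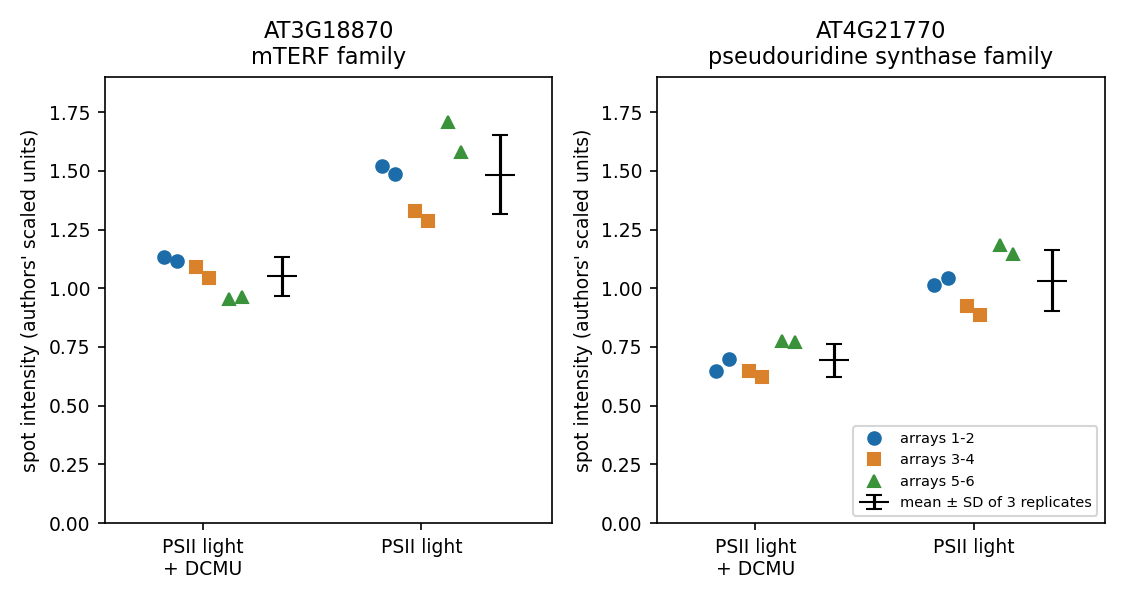
Spot intensity (authors' scaled units, axis from 0) of AT3G18870, left, and AT4G21770, right, on each array, with DCMU-treated plants left of untreated plants; colours and symbols mark number pairs, and the black bar is the mean ± SD of 3 replicates. For AT3G18870 the treated arrays lie between 0.956 and 1.13 and the untreated ones between 1.29 and 1.71; for AT4G21770 they lie between 0.620 and 0.774 and between 0.885 and 1.18.

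The 2 genes differed in how their levels moved among the number pairs. In AT3G18870 the treated replicate of numbers 5-6 was the lowest of the 3 treated ones (0.960, against 1.12 for numbers 1-2 and 1.07 for 3-4), while the untreated replicate of numbers 5-6 was the highest untreated one (1.64, against 1.50 and 1.31). In AT4G21770 numbers 5-6 were highest in both groups, at 0.772 with DCMU and 1.17 without. Numbers 3-4 were the lowest untreated replicate of both genes, at 1.31 for AT3G18870 and 0.905 for AT4G21770.

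The change per number pair varied more for AT3G18870 than for AT4G21770. For AT3G18870 the log2 change was -0.42 in numbers 1-2, -0.29 in 3-4 and -0.77 in 5-6, which is 1.34-fold, 1.23-fold and 1.71-fold lower with DCMU. For AT4G21770 it was -0.61, -0.51 and -0.59, or 1.53-fold, 1.43-fold and 1.51-fold lower. The SD of the 3 pair changes was 0.25 for AT3G18870, larger than in 80.7% of all features, and 0.05 for AT4G21770, larger than in 7.69% of them (median over all features 0.15). Set against the median feature of the same pair, which was 0.10 higher with DCMU in numbers 1-2, 0.03 in 3-4 and 0.13 in 5-6, the changes were -0.51, -0.32 and -0.90 for AT3G18870 and -0.71, -0.54 and -0.72 for AT4G21770.

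Arrays of 1 number pair repeated each other closely for both genes. AT3G18870 differed within a pair by 0.03 on the log2 scale in treated and 0.06 in untreated arrays on average, against 0.15 and 0.22 between arrays of different pairs. AT4G21770 differed by 0.06 and 0.05 within pairs and by 0.19 and 0.24 between them. The median feature differed by 0.09 within pairs in treated and 0.10 in untreated arrays. Their replicate SD on the log2 scale was near the middle of all features, at 0.14 for AT3G18870 (larger than in 49.4% of features) and 0.17 for AT4G21770 (larger than in 62.2%).

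Whether other genes of the same families were also lower with DCMU was asked next. The family lists were drawn up from general knowledge of the Arabidopsis families, since the annotation tables give no gene families. They hold 36 mTERF loci, of which 8 had a probe of their own including AT3G18870, and 20 pseudouridine synthase loci, of which 3 had one including AT4G21770. All 11 were above the floor on every array.

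None of the 9 other family genes passed the test in either direction (limma with Benjamini-Hochberg adjustment over all features, adjusted p from 0.182 to 0.870). An unadjusted limma p under 0.05 was found for 1 of the 9 genes and for 804 of all 3278 features. Over all features 5.09% passed, 3.17% lower and 1.92% higher with DCMU. With the number pair as a block 0 of the 9 passed as well (limma, adjusted p from 0.0620 to 0.797), against 17.3% of all features, 6.56% lower and 10.7% higher. Of the 9 log2 changes 7 were above 0 and 2 below, where 1069 of all 3278 features were below 0. The median was 0.07 over the 7 mTERF genes and 0.16 over the 2 pseudouridine synthase genes, against 0.10 over all features tested.

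The mTERF genes other than AT3G18870 ran from a log2 change of -0.09 to 0.29. AT1G62150 had the highest, with intensities of 1.40, 1.39, 1.27, 1.32, 1.48 and 1.41 in DCMU-treated arrays 1 to 6. Its untreated arrays stood at 1.33, 1.23, 0.965, 0.983, 1.15 and 1.14. Single arrays of the groups overlapped. The replicates did not, which was so in 30.6% of all features, and the log2 change was 0.29 (95% interval 0.02 to 0.56; adjusted p = 0.182 by limma, and 0.0142 to 0.346 over all settings tried, the low end with 12 arrays taken as separate replicates).

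The change of AT1G62010 was 0.24 (95% interval -0.08 to 0.56), of which numbers 5-6 gave 0.66 and numbers 1-2 and 3-4 gave -0.03 and 0.09. AT1G61990 was at 0.10 (-0.19 to 0.39). AT5G55580, listed in RefSeq as mTERF9 and known as a chloroplast protein, averaged 1.09 ± 0.155 with DCMU and 1.04 ± 0.0678 without (SD, n = 3 each), a log2 change of 0.07 (-0.21 to 0.34). AT3G46950 was at -0.05 (-0.36 to 0.26) and AT1G79220 at -0.09 (-0.37 to 0.19).

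AT4G09620 varied most among these genes. It averaged 2.04 ± 0.437 with DCMU and 1.98 ± 0.573 without (SD, n = 3 each), with changes of 0.51 in numbers 1-2, -0.53 in 3-4 and 0.20 in 5-6 on the log2 scale. Its mean change of 0.06 had the widest interval of the 9 genes (-0.39 to 0.51).

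AT2G30320 and AT1G76050, the other measured genes of the pseudouridine synthase list, both had changes above 0. AT2G30320 stood at 1.78, 1.61, 1.51, 1.37, 1.63 and 1.59 in DCMU-treated arrays 1 to 6. In untreated arrays it stood at 1.45, 1.42, 1.49, 1.37, 1.38 and 1.36. Each treated array was above the untreated array of its number, though the log2 change was only 0.01 in numbers 3-4. It was 0.24 in numbers 1-2 and 0.24 in numbers 5-6. The mean log2 change was 0.16 (95% interval -0.07 to 0.40, adjusted p = 0.345 by limma). AT1G76050 averaged 0.719 ± 0.107 with DCMU and 0.640 ± 0.0123 without (SD, n = 3 each), which is 0.16 higher on the log2 scale (-0.12 to 0.43; adjusted p = 0.437 by limma).

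The lower ends of the 9 intervals lay between -0.39 and 0.02. The differences between these 2 genes and the others were not tested, because the 2 were chosen on this contrast. No other family gene was lower with DCMU in all 3 number pairs, where 16.5% of all features were. Of the 9 genes 2, AT1G62150 and AT2G30320, were higher in all 3, where 40.1% of all features were. For AT2G30320 the log2 change in numbers 3-4 was only 0.01.

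**Figure D2:**
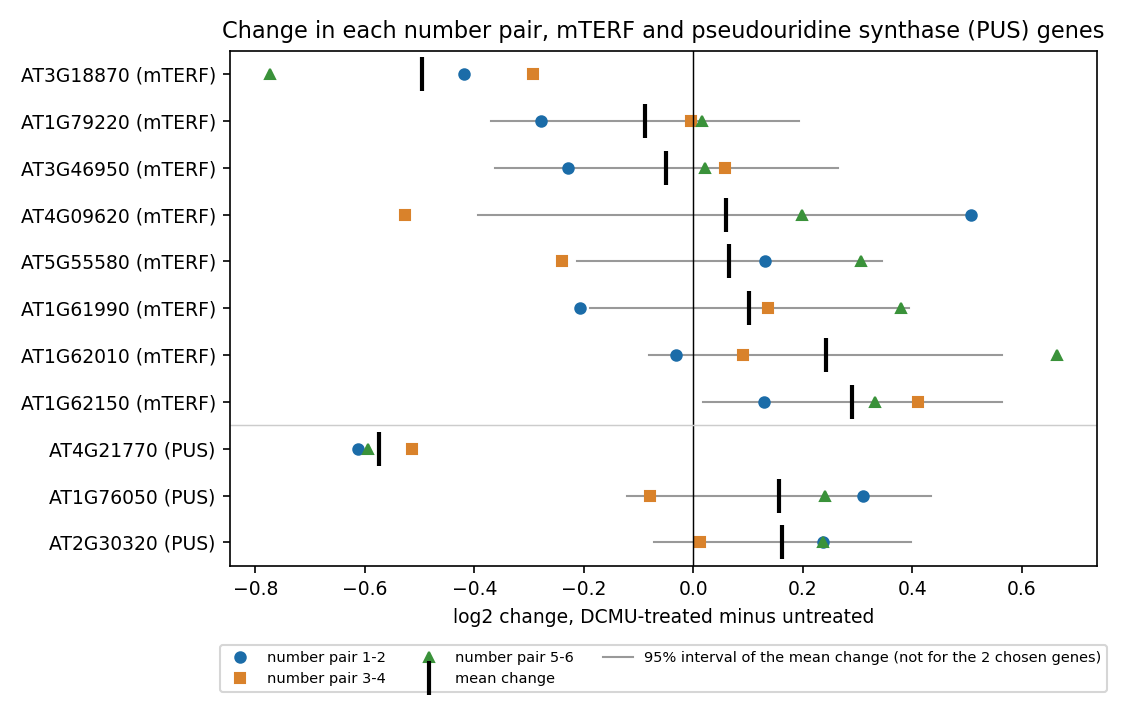
Log2 change, DCMU-treated minus untreated, of the 8 mTERF genes (top) and 3 pseudouridine synthase genes (PUS, bottom) with a probe of their own; coloured symbols are the 3 number pairs, black ticks the mean change, and grey lines the 95% interval, drawn only for the 9 genes that were not chosen on this contrast. AT3G18870 and AT4G21770 lie left of 0 in every pair, between -0.77 and -0.29 and between -0.61 and -0.51, and the intervals of 8 of the other 9 genes cross 0, AT1G62150 (0.02 to 0.56) being the exception.

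A further 6 probes were annotated to several genes that all belong to the mTERF list, and 1 probe to several genes of the pseudouridine synthase list; such probes cannot be assigned to 1 gene. The 6 mTERF probes had log2 changes of -0.13 to 0.26 with a median of 0.18. Of these changes 5 were above 0 and 1 below, where 1069 of all 3278 features were below 0. By limma 0 of 6 passed the test, against 5.09% of all features. An unadjusted limma p under 0.05 was found for 0 of 6, against 804 of all features. With the number pair as a block 0 of 6 passed as well, against 17.3% of all features. In that fit 2 had an unadjusted p under 0.05, both with changes above 0, against 1188 of all features. The pseudouridine synthase probe had a change of 0.10. Whether the probes of several genes belong to neighbouring copies was not tested. Of the 36 listed mTERF loci 9 adjoin another one in the RefSeq gene order (TAIR10.1), AT1G61990 among them. AT1G62010 (place 5162 on its chromosome) and AT1G62150 (place 5175) adjoin none. They lie close to the listed AT1G61990 (place 5160) and AT1G62120 (place 5173). AT3G18870 and AT4G21770 adjoin no gene of their lists.

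Other kinds of RNA genes could hardly be compared. The lists of 15 loci for pentatricopeptide repeat and splicing proteins, 14 for RNA polymerases and sigma factors and 8 for ribonucleases held 0 loci with a probe of their own. Ribosomal proteins, translation factors and enzymes of transfer and ribosomal RNA were sought only by words in the gene names, which found none; most names in the tables carry no such words, so genes of these kinds may be on the array, and they were not analysed here as groups. AT5G19210, of the RNA helicase list, averaged 0.310 ± 0.0244 with DCMU and 0.302 ± 0.0614 without (SD, n = 3 each), which is 0.06 higher on the log2 scale (interval of 95% from -0.27 to 0.39; adjusted p = 0.832 by limma).

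**Figure D3:**
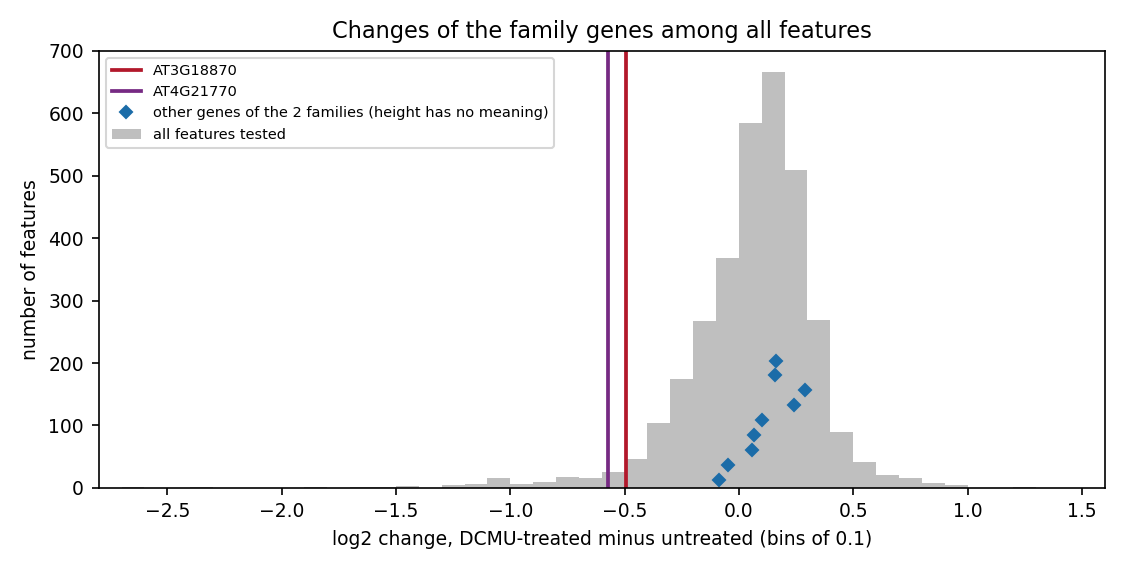
Number of features per bin of 0.1 in log2 change, DCMU-treated minus untreated, for all 3278 features (grey bars), with vertical lines at AT4G21770 (-0.57) and AT3G18870 (-0.50) and blue diamonds at the 9 other genes of the families. The diamonds lie between -0.09 and 0.29, around the median feature at 0.10, and the lines stand in the lower tail.

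The named genes whose levels ran most like each of the 2 were then sought by Pearson correlation of log2 intensity over the 12 arrays, among 650 named genes. The 12 arrays form 6 replicates and share the difference between the groups, which also chose the 2 genes, so the correlations are descriptions. AT2G34420 (LHB1B2, also called LHCB1.5), which encodes a protein of the photosystem II antenna that binds chlorophyll, came first for both, with r = 0.93 to AT3G18870 and r = 0.96 to AT4G21770. Its own log2 change was -1.15.

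For AT3G18870 the next genes were AT3G04210 (r = 0.92), AT2G36480 (r = 0.92), ATSIK (AT3G08760; r = 0.91) and AT3G50130 (r = 0.90). For AT4G21770 they were AT2G36480 (r = 0.96), PSB27 (AT1G03600, a photosystem II assembly and repair protein; r = 0.93), AT3G56010 (r = 0.93) and AT4G01310 (r = 0.91). The 2 genes correlated with each other at r = 0.88, which ranked AT4G21770 the 9th of 650 for AT3G18870 and AT3G18870 the 10th for AT4G21770.

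The likeness between the 2 genes was weaker within the groups. After each group's mean was subtracted, they correlated at r = 0.34, which ranked AT4G21770 104th and AT3G18870 128th of 650. The genes most like AT3G18870 in these deviations were AT1G31220 (r = 0.88), AT3G07790 (r = 0.85), AT5G40470 (r = 0.84), AT5G63390 (r = 0.84) and AT4G22190 (r = 0.82). Those most like AT4G21770 were AT3G06870 (r = 0.93), ATSPS4F (AT4G10120; r = 0.92), AT1G04330 (r = 0.92), AT4G24840 (r = 0.86) and AT3G26730 (r = 0.84). The lists share no gene, and their 10 genes had log2 changes with DCMU of -0.26 to 0.29.

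**Figure D4:**
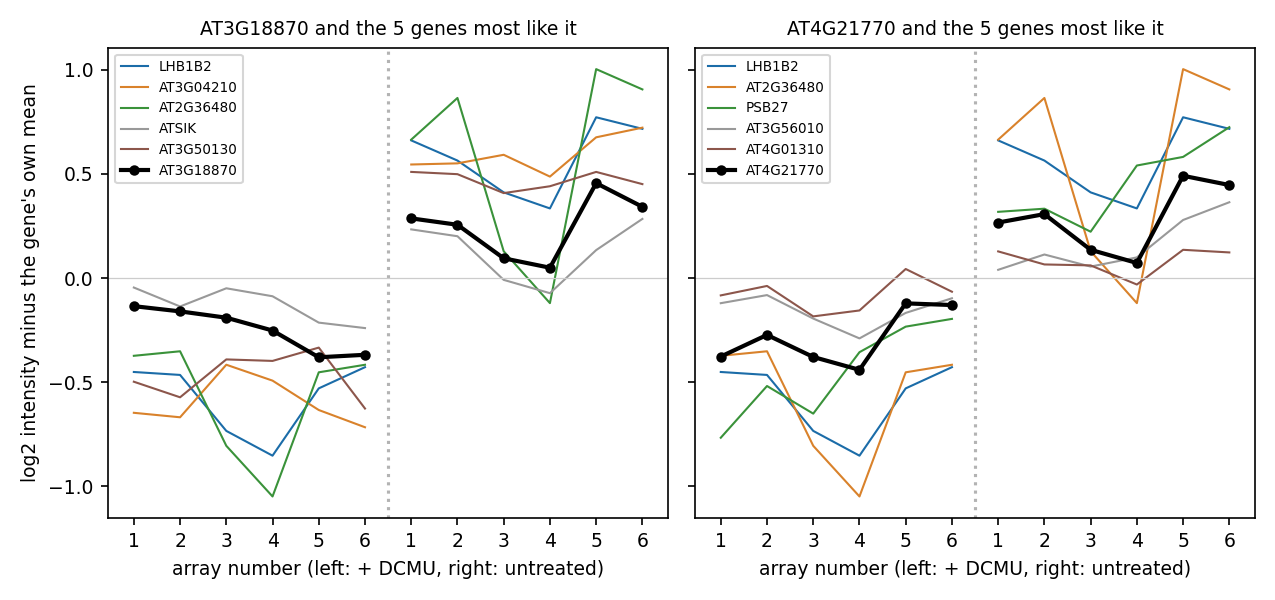
Log2 intensity minus each gene's own mean (vertical axis) on the 12 arrays, DCMU-treated left and untreated right of the dotted line, for AT3G18870 and AT4G21770 (black) and the 5 named genes most correlated with each (colours). The antenna gene LHB1B2 correlates most with both (r = 0.93 and 0.96), and its lines span a wider range than the black ones.

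Of the 18 alternative settings, 6 left the mean change of both genes as it was (the block, single arrays as replicates, the floor, the filters and the intensity trend) and 2 repeated the value of a scaling with the block added. Over the other 10 it ran from -0.58 to -0.42 for AT3G18870 and from -0.66 to -0.48 for AT4G21770, and each end came from leaving out an untreated replicate. Without untreated numbers 3-4 the changes were -0.58 and -0.66, and without untreated numbers 5-6 they were -0.42 and -0.48. Centring each array on its median gave -0.57 for AT3G18870 and -0.65 for AT4G21770.

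**Figure D5:**
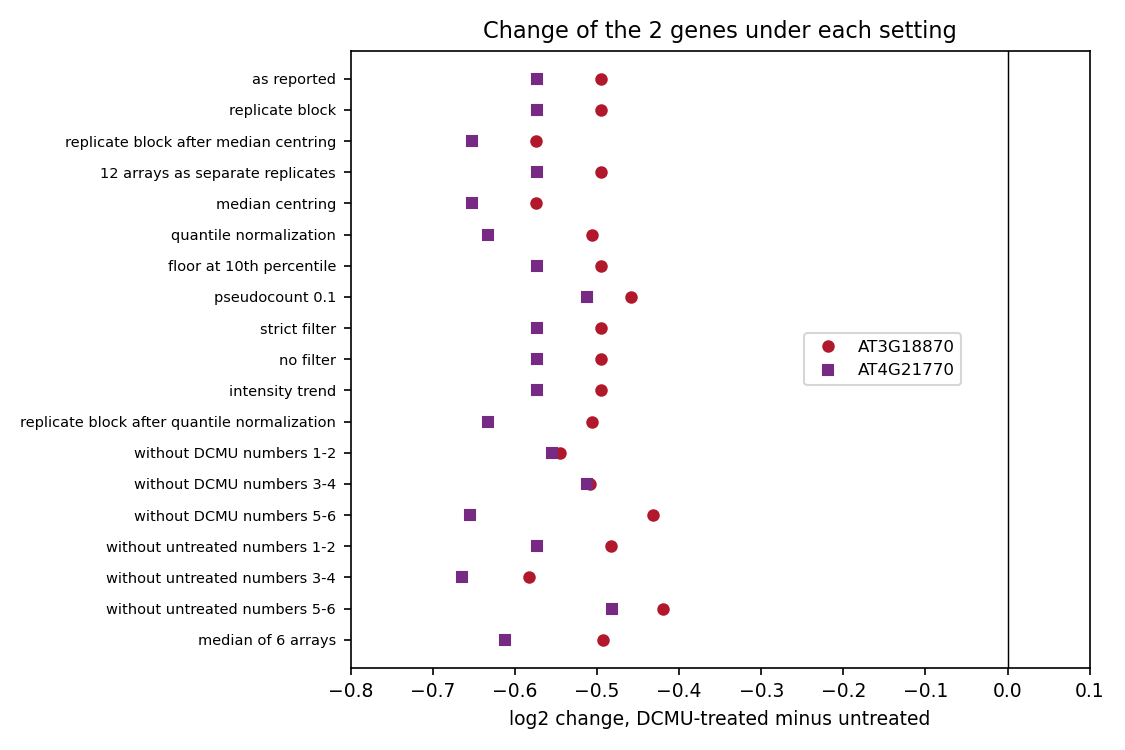
Log2 change, DCMU-treated minus untreated, of AT3G18870 (circles) and AT4G21770 (squares) as reported and under each alternative setting. All values lie between -0.66 and -0.42, left of 0.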

How the data were processed

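Per probe and array, the deposited values are spot intensities on a linear scale, for 3439 probes. The authors had scaled it, as far as the values show; the sources used here do not give how arrays were labelled, scanned, background-corrected or scaled. Local background was not used here. The number of arrays limits the precision. Of the probes, 692 were annotated to 1 gene by the platform annotation, and 690 of these were found by gene identifier in the RefSeq TAIR10.1 gene table; names were not checked by sequence.

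Before log2 was taken, a floor of 0.0669 (the 1st percentile of positive values) replaced every lower value. Probes that never exceeded it, 160 in all, were left out and spots of 1 gene averaged, leaving 3278 features, 651 of them named. The comparison used limma 3.58.1 under R 4.3.3: two-sided moderated tests from lmFit and eBayes, with Benjamini-Hochberg adjusted p-values over every feature and a threshold of 0.05. The procedure was tested on simulated data. Figures were drawn with matplotlib 3.10.9.

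Deviations from group means correlated at 0.36 to 0.67 between arrays of numbers 1-2, 3-4 and 5-6 and at -0.58 to -0.11 between other numbers, so these pairs were averaged. Across groups, replicates of the same numbers correlated at 0.38 to 0.44, which was taken to pair them; a second fit had the number pair as a replicate block. Negative correlations follow in part from the centring.

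The 2 genes, the gene lists and the tests were chosen with earlier results of these data known. Named genes were, by rule, the 2 genes, the measured genes of the RNA lists, and for each of the 2 genes the 5 with the highest correlation. The rule asked for 3 genes of a list with more than 6 measured members; the mTERF list had 8, and its other genes were named after their values were seen. Alternatives were the block, scaling, the floor, a pseudocount, the filter, an intensity trend, single arrays as replicates, medians and leaving out each replicate.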

Additional observations from a re-analysis of the deposited data

Results flagged for a closer look

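Of the 19 features examined (the 11 family genes, AT5G19210 and the 7 probes of several family genes), 1 group of 6 arrays held an array set apart from the others. In untreated plants AT1G76050, of the pseudouridine synthase list, stood at 0.683 on array 2, and the next highest untreated array was at 0.638, a gap of 0.782 of the group's whole range. Chance sets apart about 1 in 20 groups, and 38 groups were examined. Neither AT3G18870 nor AT4G21770 had such an array.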

How the results depend on the processing

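Under the 10 alternatives that could move them, the changes of AT3G18870 and AT4G21770 moved by less than their SD between replicates; as the genes were chosen for this direction, that is no sign of stability. Leaving out 1 replicate gave -0.58 to -0.42 and -0.66 to -0.48. Of 3278 features 167 passed. With the replicate block 566 passed (215 lower, 351 higher), with the block after median centring 507 (337 lower, 170 higher) and with the block after quantile normalization, chosen after seeing the data, 465 (280 lower, 185 higher). Single arrays as 12 replicates, which ignores the number pairs, gave 1089. A floor at the 10th percentile gave 110, and no filter, which adds the features at the floor on every array, 102. Leaving out 1 replicate gave 77 (without DCMU numbers 1-2) to 282 (without untreated numbers 3-4); it was 90 without DCMU numbers 5-6, 82 without untreated numbers 1-2 and 87 without untreated numbers 5-6. Among the 10 other measured RNA genes 0 passed, except 1 with single arrays as replicates (AT1G62150, limma, adjusted p = 0.0142), a setting in which 2 of the 6 mTERF probes of several genes also passed; leaving out 1 replicate gave 0 each time, and the block changed no call among them. Beyond this the cause was not tested. Without background values, low levels cannot be told from none.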
